A study of Mus musculus with 18 samples.

Results

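The genes described here bring iron into the cell, carry it into the mitochondrion, store it, release it and free it from heme. They were the 10 genes Tfrc, Steap3, Slc11a2, Slc25a37, Slc25a38, Abcb10, Fth1, Ftl1, Slc40a1 and Hmox1, chosen by name among 21938 protein-coding genes (annotation GENCODE vM21, mouse build mm10), and all 10 were found. Each was followed in 8 peak lists over its gene body with 10 kb on each side, which is called the locus. A promoter peak shared at least 1 bp with a start site of the gene with 1 kb on each side, a distal peak touched no such window of any protein-coding gene, and the remaining peaks lay at a neighbour's start site.

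The study mapped 2 histone marks by chromatin immunoprecipitation and sequencing (ChIP-seq) in cells sorted from the bone marrow of C57BL6 mice, male and 5 to 8 weeks old by the study's methods. The histone methylation H3K4me3 sits chiefly at promoters, while the acetylation H3K27ac marks promoters and enhancers in use. Nucleated red cell precursors, the erythroblasts (ERY), were Ter119+, CD44+ and of low forward scatter. Immature megakaryocytes (iMK), from which platelet-forming cells mature, were CD41+, CD61+, Ter119-, Sca1- and cKit-. Cells of either sort were CD4-, CD8-, IL7Ra-, CD11b-, Ly6g- and CD45R-. Each mark had 2 ERY and 2 iMK libraries, no group carried a mutation or a treatment by the labels, and 10 input libraries were not used here. The methods call the replicates biological but allow separate sorted portions of the same mice, so every p below measures the spread between these libraries.

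A maturing red cell takes up most of its iron bound to transferrin. The transferrin receptor carries it into endosomes, a ferrireductase and a transporter pass it to the cytosol, and mitoferrin brings it into the mitochondrion, where it is set into heme. Ferritin holds the surplus, ferroportin exports iron, and heme oxygenase breaks heme down again. Several of these mRNAs carry a hairpin, the iron-responsive element, through which iron regulatory proteins block translation or protect the mRNA.

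H3K27ac peaks numbered 25750 and 21768 in ERY and 22931 and 24781 in iMK (replicate 1 first), over 77.0 and 64.9 Mb against 42.9 and 53.2 Mb. The H3K4me3 lists were uneven, since iMK replicate 2 covered 33.8 Mb and the other 3 libraries 9.02 to 16.0 Mb. The lists hold no read depth, and 0% means that no peak was listed, not that the mark was absent. All 8 erythroid marker genes had more H3K27ac coverage in ERY, with a mean of 64.1% and 59.2% of the locus against 2.42% and 2.85% (replicates 1 and 2 of each cell type). The label iMK fitted its markers less well. The 8 megakaryocyte markers averaged 11.5% and 10.9% in ERY against 2.28% and 3.76% in iMK. In the test of locus coverage used below, 6 were tested, with 2 called higher in ERY and 1 in iMK. Over all tested genes 22.0% were called higher in ERY and 17.2% higher in iMK. Itga2b, the gene of CD41, had H3K27ac over 16.8% and 3.8% of its locus in ERY and no peak in either iMK library. Of the 8 markers Pf4 and Gp6 had none in any library. Itgb3, the gene of CD61, had 0% and 0% in ERY and 5.82% and 8.73% in iMK. Markers of neutrophils, which the sort should leave out, averaged 0.287% and 0% in ERY and 18.3% and 38.3% in iMK. The term used below is therefore the libraries labelled iMK.

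These 5 stretches of sequence show where the marks lay differently within 1 gene, and they are printed first because later results refer to them. The RefSeq promoter table of GRCm38.p6, which covers a short stretch about each start, held 6 of the 10 genes in 11 entries and did not hold Slc25a37, Slc11a2, Slc40a1 or Hmox1. Capitals mark a match to AGATAA, the core bound by the erythroid factor GATA1, or to CCACACCC, bound by the erythroid factor KLF1, on either strand (read as TTATCT or GGGTGTGG on the other). The first Steap3 sequence, chr1:120271031-120271330 on the minus strand, lay inside H3K27ac peaks in both ERY libraries and in neither library labelled iMK, and the second, chr1:120265237-120265536, in all 4.
Steap3, start 1.62 kb: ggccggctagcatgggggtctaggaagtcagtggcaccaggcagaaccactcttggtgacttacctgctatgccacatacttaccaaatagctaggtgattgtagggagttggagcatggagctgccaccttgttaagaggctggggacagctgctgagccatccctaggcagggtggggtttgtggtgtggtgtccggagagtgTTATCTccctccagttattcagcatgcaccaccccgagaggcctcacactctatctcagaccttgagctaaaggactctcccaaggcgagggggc
Steap3, start 7.42 kb: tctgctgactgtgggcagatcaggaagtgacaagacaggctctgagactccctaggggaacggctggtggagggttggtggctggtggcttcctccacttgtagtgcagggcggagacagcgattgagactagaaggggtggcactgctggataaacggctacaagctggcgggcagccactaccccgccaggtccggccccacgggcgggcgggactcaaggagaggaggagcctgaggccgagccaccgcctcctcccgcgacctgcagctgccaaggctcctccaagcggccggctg
The distances count from the first annotated start of the gene. The same pair exists at Fth1 on the plus strand, with chr19:9980350-9980649 inside H3K27ac peaks in both ERY libraries and neither labelled iMK, and chr19:9982396-9982695 in all 4.
Fth1, start 0.002 kb: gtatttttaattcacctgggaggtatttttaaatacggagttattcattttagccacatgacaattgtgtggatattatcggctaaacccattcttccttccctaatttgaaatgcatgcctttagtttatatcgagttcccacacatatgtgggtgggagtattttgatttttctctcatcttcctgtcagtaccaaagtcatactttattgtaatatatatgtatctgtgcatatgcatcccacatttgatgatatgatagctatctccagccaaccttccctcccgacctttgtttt
Fth1, start 2.05 kb: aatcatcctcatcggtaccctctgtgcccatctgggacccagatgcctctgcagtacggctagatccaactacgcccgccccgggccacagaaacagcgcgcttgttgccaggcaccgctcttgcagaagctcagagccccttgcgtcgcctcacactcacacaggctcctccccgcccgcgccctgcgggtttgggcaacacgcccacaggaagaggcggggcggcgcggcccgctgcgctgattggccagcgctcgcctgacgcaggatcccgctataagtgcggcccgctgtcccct
The fifth is a start site inside Slc25a38, chr9:120114600-120114899 on the plus strand, read from GRCm38.p6, where H3K4me3 peaks were called in both ERY libraries only.
Slc25a38, start 4.48 kb: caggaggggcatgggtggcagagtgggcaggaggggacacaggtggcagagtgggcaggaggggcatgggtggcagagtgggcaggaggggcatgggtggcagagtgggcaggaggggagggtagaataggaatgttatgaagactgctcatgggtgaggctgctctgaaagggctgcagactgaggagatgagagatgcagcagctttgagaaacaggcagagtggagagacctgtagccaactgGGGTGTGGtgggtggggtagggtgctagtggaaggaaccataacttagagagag

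The start sites with H3K27ac in all 4 libraries were richer in CpG. The ratio of observed to expected CpG was 0.502 at Steap3 7.42 kb against 0.170 at 1.62 kb, and 0.827 at Fth1 2.05 kb against 0.405 at the upstream start. It was 0 at Slc25a38 4.48 kb, which held no CpG. G and C made up 65.7% and 56.3% of the 2 Steap3 sequences, 67.0% and 36.7% of the 2 Fth1 sequences in the same order, and 59.3% of the Slc25a38 sequence. Of 20150 promoters in the table, 9.45% held AGATAA and 3.69% held CCACACCC. The GATA1 match at Steap3 1.62 kb was the only one of either kind in the 11 entries.

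The question of how the marks at these genes differ between the cell types was asked first for H3K27ac over the whole locus. Of the 10 genes 9 had more of the locus covered in ERY and none more in the libraries labelled iMK (limma, Benjamini-Hochberg adjusted p under 0.05 over 14467 genes), where 22.0% of all tested genes were called higher in ERY and 17.2% higher in iMK. The median difference, ERY minus iMK, was 34.5 percentage points over the 10 genes and 0.599 over all genes tested. Hmox1 was the exception. The same 9 genes had both ERY libraries above both libraries labelled iMK, against 41.1% of genes tested, and Hmox1 had the reverse order, against 31.3%. After quantile normalization of the libraries Fth1, Slc25a38 and Ftl1 were no longer called higher in ERY. The calls rested on few libraries: without replicate 1 or without replicate 2 labelled iMK 2 genes were called, Abcb10 and Fth1, and without either ERY replicate 6 were.

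**Figure D1:**
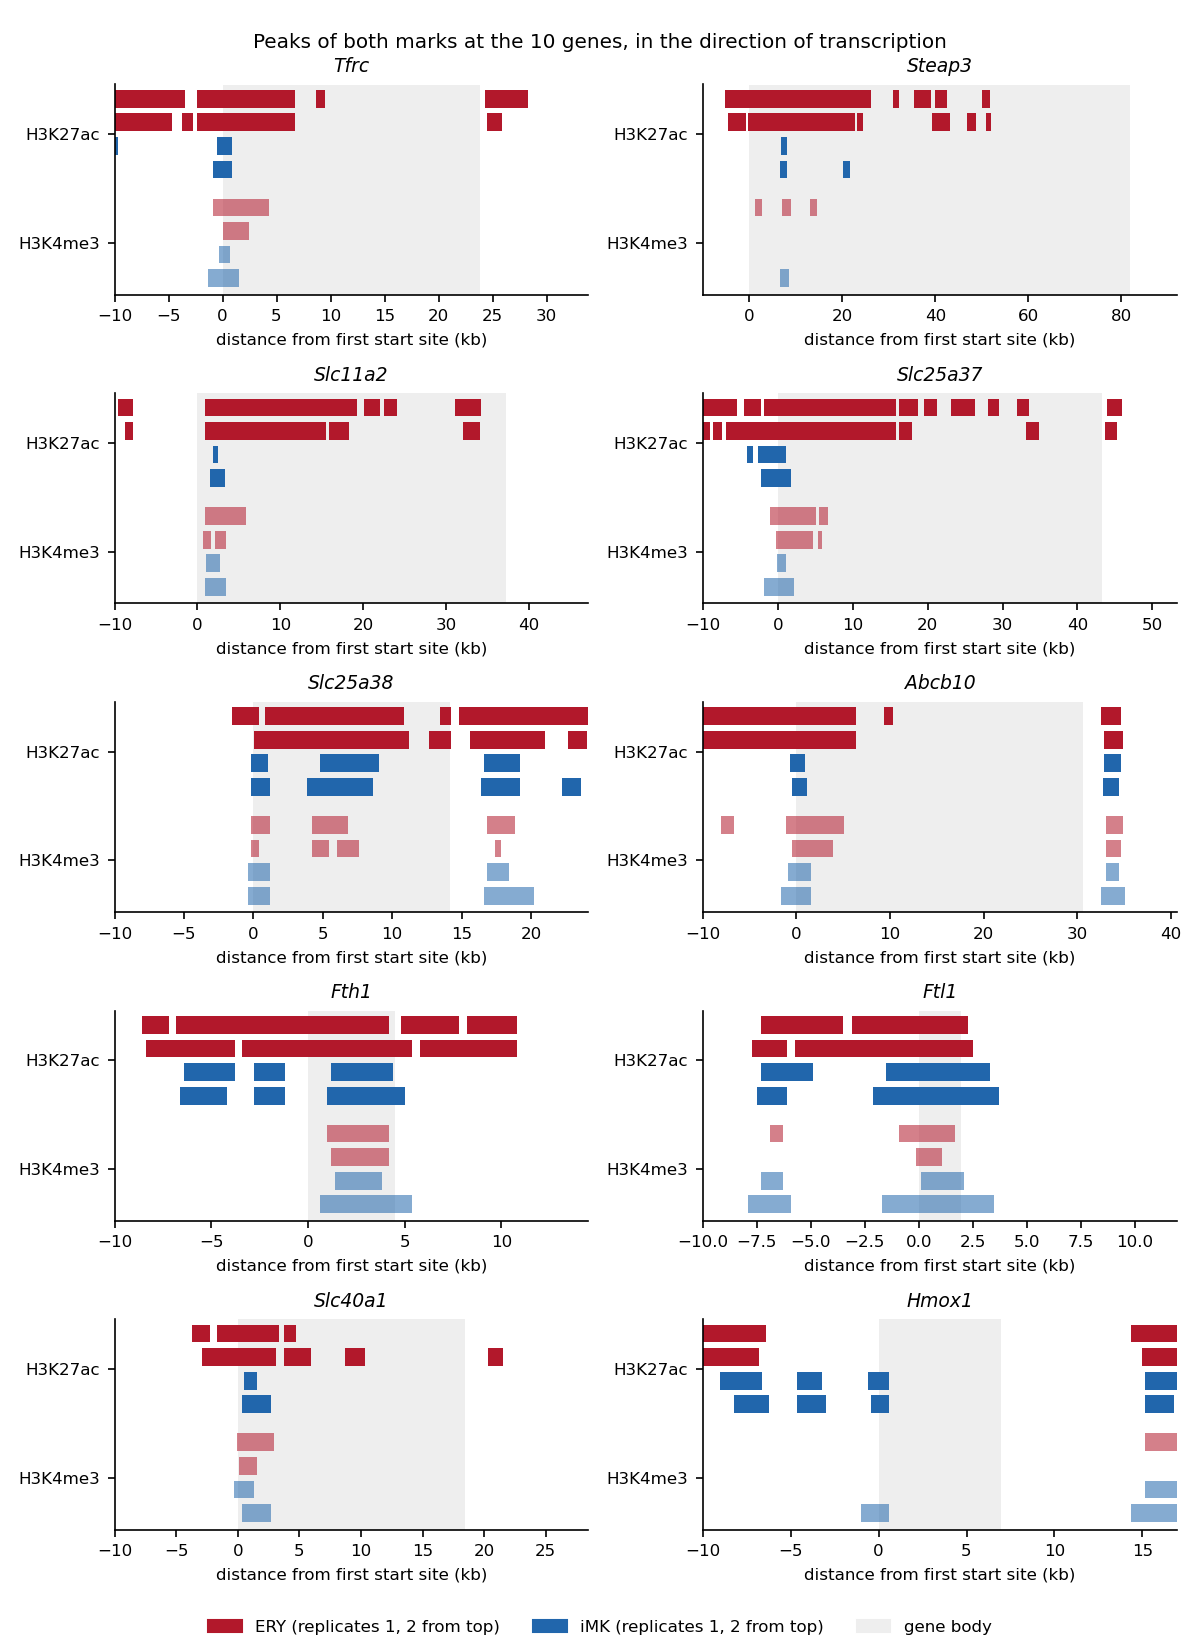
Peaks of H3K27ac (dark) and H3K4me3 (light) at the 10 genes in the 8 libraries, 1 bar per peak, by distance from the first start site in kb in the direction of transcription; red is ERY, blue the libraries labelled iMK, replicate 1 above replicate 2, grey the gene body. Red H3K27ac bars run far past the short blue ones at Steap3, Slc11a2, Slc25a37 and Abcb10, while at Hmox1 the bars at the start site are blue.

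The 3 genes of uptake had the least H3K27ac in the libraries labelled iMK. Tfrc (chr16:32608920-32632794, plus strand) encodes transferrin receptor 1, and its locus was covered over 46.2% and 38.0% in ERY (replicate 1 first, here and below) against 3.83% and 4.10% in the libraries labelled iMK. The difference was 38.2 points (SE 3.62, adjusted p = 0.0103, limma). Steap3 (chr1:120190757-120272705, minus) encodes the ferrireductase of erythroid endosomes, and it was covered over 39.6% and 34.5% against 1.37% and 3.14%. The difference was 34.8 points (SE 2.56, adjusted p = 0.00768). Slc11a2 (chr15:100387898-100425072, minus) encodes DMT1, which moves ferrous iron out of the endosome, and it had 47.2% and 35.0% against 1.05% and 3.15%. The difference was 39.0 points (SE 5.15, adjusted p = 0.0178). At all 3 genes the groups lay far apart.

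The mitochondrial genes were marked in the same direction. Slc25a37 (chr14:69241848-69285112, minus) encodes mitoferrin 1, the carrier that brings iron into the mitochondrion of erythroid cells, and it had the largest difference of the 10 genes. Its locus was covered over 58.3% and 47.3% in ERY and 7.27% and 6.32% in the libraries labelled iMK, a difference of 46.0 points (SE 4.79, adjusted p = 0.0119). Of this, 5.24 points came from peaks at the start site of the neighbour Synb. No such peaks lay at Fth1, the gene with the next largest difference (42.9 points). Slc25a38 (chr9:120110374-120124504, plus) encodes the mitochondrial glycine carrier that feeds heme synthesis, and it had 64.8% and 57.4% against 23.4% and 30.5%. The difference was 34.1 points (SE 4.59, adjusted p = 0.0184), of which 13.6 points came from peaks at the start site of the neighbour Rpsa. The call was lost without any 1 of the 4 libraries (adjusted p from 0.0823 to 0.115) and under quantile normalization (8.29 points, adjusted p = 0.0956). Abcb10 (chr8:123952459-123983122, minus) encodes an inner membrane transporter that stabilises mitoferrin 1 in mouse erythroid cells. It had 38.5% and 36.2% against 6.71% and 6.71%, a difference of 30.6 points (SE 1.79, adjusted p = 0.0065). The spread within each cell type was small beside these differences, and Slc25a38 kept the most coverage of the 3 in the libraries labelled iMK.

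The ferritin genes were covered in both cell types. Fth1 (chr19:9980598-9985098, plus) encodes the heavy chain, which oxidises iron for storage, and it had the highest coverage of the 10 genes in ERY, 73.5% and 75.1%, against 30.2% and 32.7%. The difference was 42.9 points (SE 2.46, adjusted p = 0.0065), and under quantile normalization it was 11.3 points and did not pass (adjusted p = 0.0725). Ftl1 (chr7:45457944-45459884, minus) encodes the light chain, and it had 41.9% and 44.7% against 32.8% and 32.8%. Its difference of 10.5 points (SE 2.38) sat at the threshold, with an adjusted p of 0.0490, and the call was lost under 6 of the other settings tried and without any 1 of the 4 libraries (adjusted p from 0.0515 to 0.158). Of the 10.5 points 3.65 came from peaks at the start site of the neighbour Bax alone. The Ftl1 promoter peak of ERY replicate 2 also came within 1 kb of a Bax start site and is not in that share. Quantile normalization turned the Ftl1 difference to -14.0 points. Both genes have processed copies elsewhere in the genome, and the study's methods kept reads that map to several places, so peaks over their exons are less certain.

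The genes of export and heme breakdown remain to be described. Slc40a1 (chr1:45908068-45926523, minus) encodes ferroportin, the iron exporter, and its locus had 19.2% and 28.6% in ERY against 2.60% and 6.24%. The difference was 19.5 points (SE 4.14, adjusted p = 0.0432), and the call was lost without any 1 of the 4 libraries, with adjusted p from 0.0745 to 0.244. Hmox1 (chr8:75093621-75100589, plus) encodes heme oxygenase 1, which opens heme and frees its iron. Its locus had 22.9% and 19.2% in ERY and 25.2% and 23.0% in the libraries labelled iMK, a difference of -3.06 points (SE 2.31, adjusted p = 0.366). Most of that coverage lay away from the gene, so the locus value depended on the flank: it was -15.3 points with 5 kb on each side (adjusted p = 0.00626) and 2.11 points with 25 kb (adjusted p = 0.436).

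**Figure D2:**
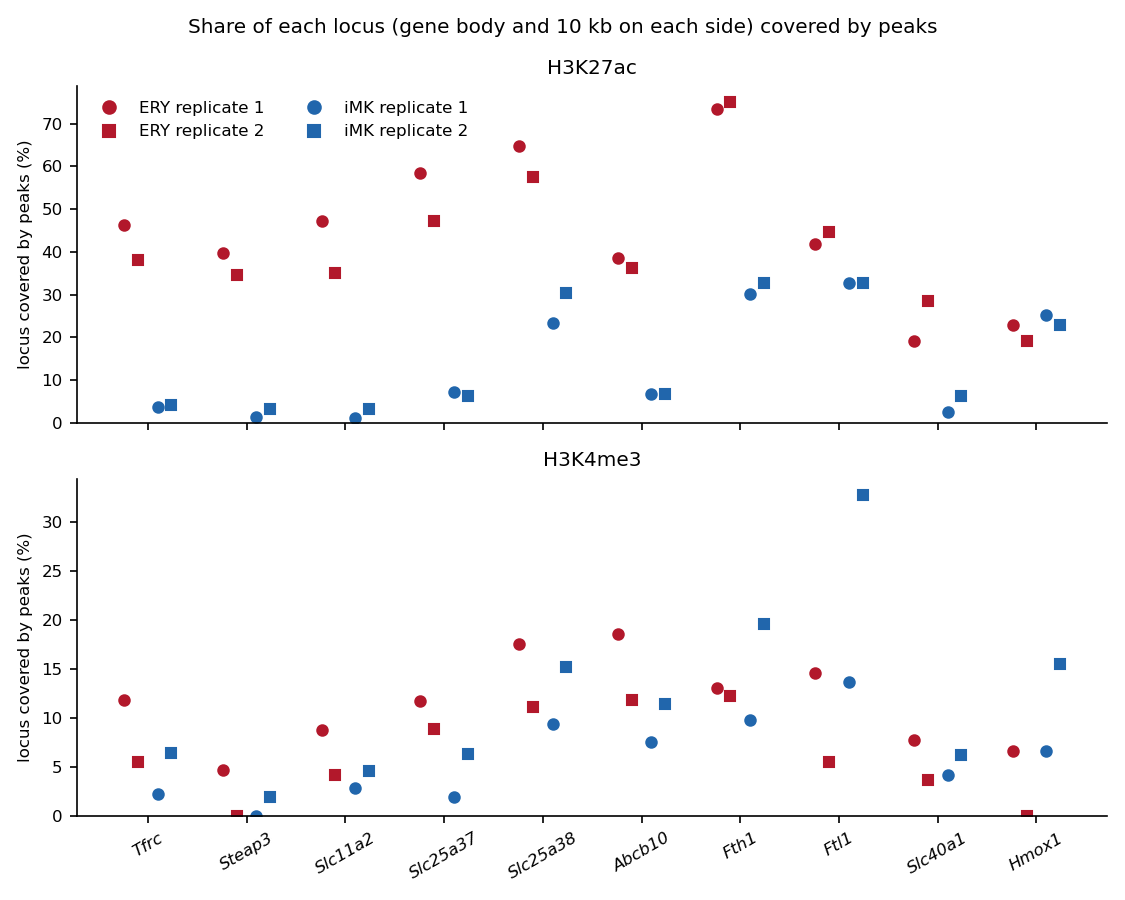
Share of each locus covered by peaks (percent, vertical axis) for the 10 genes, H3K27ac above and H3K4me3 below; each point is 1 library, circles replicate 1 and squares replicate 2, red ERY and blue the libraries labelled iMK. For H3K27ac the red points stand above the blue at 9 genes, and for H3K4me3 they mix at most genes, with iMK replicate 2 high at Ftl1 (32.8%).

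**Figure D3:**
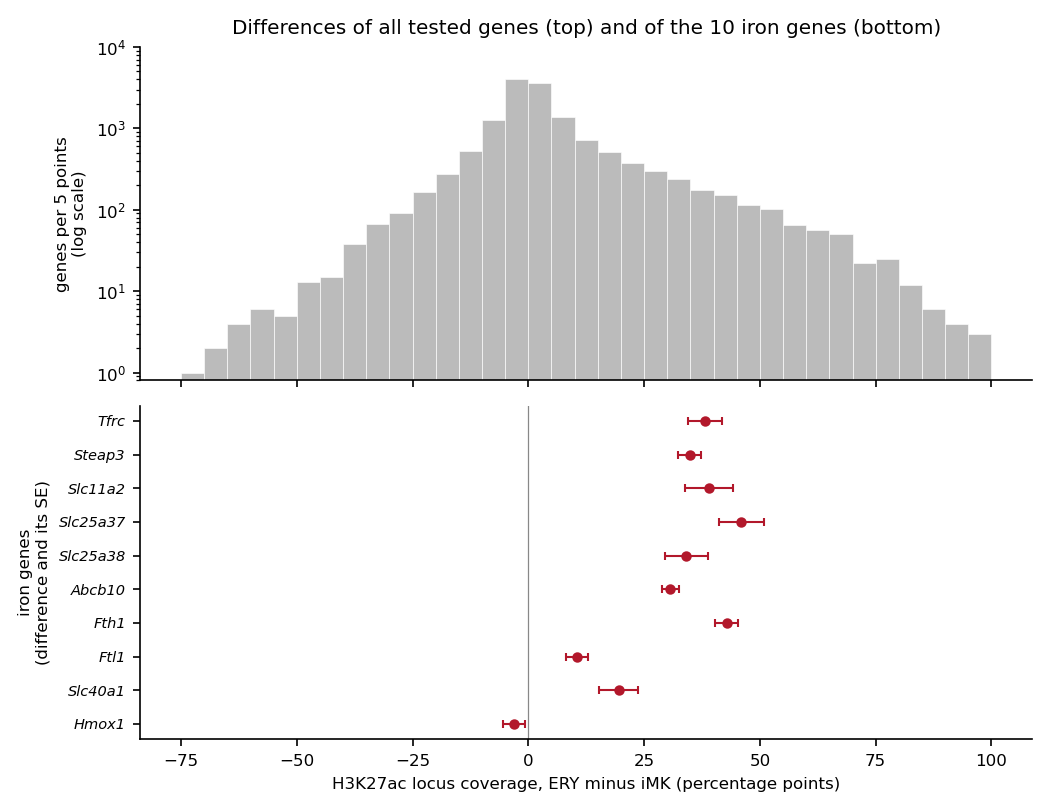
Difference in H3K27ac locus coverage, ERY minus iMK in percentage points: above, the number of genes per 5 points on a log scale over the 14467 genes tested; below, the 10 genes with limma's standard error as bars. The bulk of genes lies near 0, and 7 of the 10 genes lie between 30.6 and 46.0 points.

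Promoter and distal peaks were then taken apart. All genes but Hmox1, 9 of 10, had an H3K27ac promoter peak in all 4 libraries, as did 36.0% of all protein-coding genes. The promoter peaks were wider in ERY. Coverage by promoter peaks was higher in ERY at 7 genes, where 16.4% of 11590 tested genes were so called. At Tfrc it was 22.3% and 20.5% in ERY and 3.19% and 4.10% in the libraries labelled iMK (17.8 points, SE 1.13, adjusted p = 0.00852, limma). At Steap3 it was 30.8% and 26.5% against 1.37% and 1.57% (27.2 points, SE 2.01, adjusted p = 0.0101). At Slc11a2 it was 38.5% and 25.5% against 1.05% and 3.15% (29.9 points, SE 5.51, adjusted p = 0.0441). At Slc11a2 the promoter peaks were all the H3K27ac listed in the libraries labelled iMK. In every library the widest Slc11a2 promoter peak also lay at a start site of the neighbour Gm5475.

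Among the mitochondrial genes Abcb10 showed the most even values, 32.2% in each ERY library and 3.16% in each library labelled iMK (29.1 points, SE 1.1, adjusted p = 0.00612). Promoter peaks at Slc25a37 covered 27.8% and 35.7% against 6.01% and 6.32% (25.6 points, SE 3.47, adjusted p = 0.0260). At Slc25a38 they covered 35.2% and 32.8% against 15.8% and 18.2% (17 points, SE 2.07, adjusted p = 0.0221), a call lost without any 1 library (adjusted p from 0.0723 to 0.101) and turned to -1.68 points by quantile normalization. The ERY and iMK values did not overlap at any of the 3, where both ERY libraries stood above both labelled iMK at 39.3% of genes. At Fth1 promoter peaks covered 44.9% and 35.9% against 13.1% and 16.3% (25.7 points, SE 4.27, adjusted p = 0.0370), a call also lost without any 1 library (adjusted p from 0.0611 to 0.215). Ftl1 did not pass, with 24.6% and 37.4% against 21.9% and 26.4% (adjusted p = 0.414), and its groups overlapped. Slc40a1 did not pass either, with 15.6% and 21.3% against 2.60% and 6.24% (adjusted p = 0.0537). The count of 7 fell to 4 with no filter on covered genes and without ERY replicate 1, and to 1, Abcb10, without either replicate labelled iMK.

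Hmox1 went the other way. No promoter peak was listed in either ERY library, and the 2 libraries labelled iMK had peaks over 4.45% and 3.71% of the locus, a difference of -4.08 points (SE 0.339, adjusted p = 0.0119), in a test that called 15.1% of genes higher in iMK. Both libraries labelled iMK stood above both ERY libraries at 27.9% of genes. These peaks ran from -0.62 and -0.42 kb to 0.58 kb of the start, with the authors' fold over control at 5.79 and 4.04. The call was lost without either ERY replicate. An iMK-only promoter was found at 8.56% of all genes. A further region, from -4.62 to -3.02 kb of the start, was also listed in both libraries labelled iMK and neither ERY library. Macrophages are known to express Hmox1, and some markers of macrophages and neutrophils also had more H3K27ac in the libraries labelled iMK. Of 8 macrophage markers 5 were tested, and 3 were called higher in the libraries labelled iMK and none in ERY, while Vcam1, Spic and C1qa had no peak. Of 8 neutrophil markers 3 were called higher in the libraries labelled iMK and none in ERY. Both counts are of locus coverage, where 17.2% of all tested genes were called higher in iMK. The macrophage mean was 6.09% and 4.22% in ERY against 10.1% and 10.3%, and the neutrophil means stand above. Their part in the Hmox1 result was not tested.

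Distal peaks numbered 22 and 20 over the 10 genes in the ERY libraries and 6 and 6 in those labelled iMK. Such peaks were not counted over all loci, and the ERY lists covered more bases in total. Ftl1 had none, and of the 9 genes tested 3, all genes of uptake, had more distal coverage in ERY, against 15.5% of 9791 genes, and none more in iMK, against 12.9%. Tfrc had distal peaks over 23.9% and 17.5% in ERY and 0.640% and 0% in the libraries labelled iMK (20.4 points, SE 2.80, adjusted p = 0.0319, limma). Steap3 had 8.83% and 8.04% against 0% and 1.57% (7.65 points, SE 0.954, adjusted p = 0.0292). Slc11a2 had 8.75% and 9.44% and no distal peak in either library labelled iMK (9.09 points, SE 0.681, adjusted p = 0.0260). The count was 6 without ERY replicate 2 and 1, Slc11a2, without replicate 1 labelled iMK.

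Of the other genes Slc25a37 and Fth1 varied most between the ERY replicates in distal coverage, in points. Slc25a37 had 23.4% and 8.22% against 1.26% and 0% (adjusted p = 0.192). Fth1 had 28.6% and 39.2% against 17.1% and 16.3% (adjusted p = 0.0912), and Slc40a1 had 3.64% and 7.28% against no distal peak (adjusted p = 0.104). None of these passed, although the groups did not overlap, as was so with ERY higher at 33.1% of genes tested. The adjusted p was 0.405 for Slc25a38, 0.383 for Abcb10 and 0.452 for Hmox1.

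**Figure D4:**
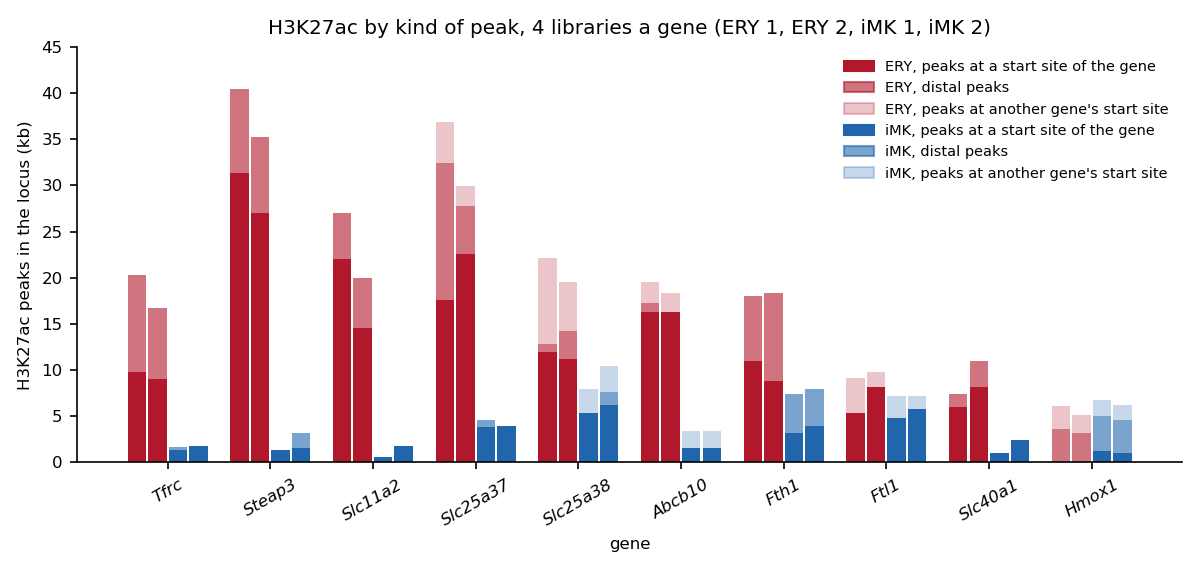
H3K27ac peaks within each locus in kb, stacked by kind of peak, 4 bars a gene (ERY 1, ERY 2, iMK 1, iMK 2); dark is peaks at a start site of the gene, medium distal peaks, pale peaks at another gene's start site. Promoter peaks make most of both ERY bars at Steap3, Slc11a2, Slc25a38, Abcb10, Ftl1 and Slc40a1, and Hmox1 has a promoter share only in the libraries labelled iMK.

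Joined across libraries, the distal peaks formed 9 regions listed in both ERY libraries and in neither library labelled iMK, at 5 genes. A further 10 distal regions, also at 5 genes, had a mixed pattern, and regions were not counted over all genes. The strongest of the 9 by the authors' fold was 39.3 to 43.1 kb into Steap3, with 5.68 and 2.58 over control in ERY replicates 1 and 2. At Slc11a2 such regions lay from -9.53 to -7.73 kb of the first start (fold 2.04 and 2.62) and from 31.1 to 34.3 kb (fold 2.66 and 2.27). At Tfrc 1 lay just past the gene, 24.3 to 28.3 kb from the start (fold 1.96 and 1.48). The only distal region in the opposite class was the Hmox1 region above, with a fold of 4.28 and 4.99, and Hmox1 also had the only distal region shared by all 4 libraries, from -12.4 to -6.22 kb of its start.

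Single promoter peaks were far wider in ERY at several genes. The Steap3 promoter peak was 31400 and 23000 bp wide in ERY, rank 46 of 25750 and 93 of 21768 peaks by width, and 1400 and 1600 bp in the libraries labelled iMK. The promoter peak of Abcb10 was 20000 and 19200 bp against 1600 and 1600 bp, and that of Slc11a2 18400 and 14600 bp against 600 and 1800 bp. At Slc25a37 it was 17600 and 22600 bp against 3800 and 4000 bp. These peaks ranked 172 to 276 in ERY except those of Slc11a2 and Slc25a37 in replicate 2, at 344 and 97. Upstream of Slc25a37 lay a further wide peak at the start site of Synb, 21200 and 32400 bp in ERY, the latter rank 26 of its list, and within the locus the libraries labelled iMK had no peak of that kind.

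Averaged over replicates, the total width of promoter peaks in ERY was 19.5 times that in the libraries labelled iMK at Steap3, 15.2 times at Slc11a2 and 10.2 times at Abcb10. It was 5.88 times at Tfrc, 5.15 at Slc25a37, 4.18 at Slc40a1, 2.75 at Fth1, 2.0 at Slc25a38 and 1.28 at Ftl1. Over all 7897 genes called in all 4 libraries the median ratio was 1.34, and the upper 5% of genes lay above 6.0, and 0.393% of genes had a ratio higher than that of Steap3. Wider promoter peaks did not go with a higher fold. At Tfrc, Steap3, Slc11a2, Slc25a37, Fth1 and Ftl1 the widest promoter peak had a lower fold in both ERY libraries than in either library labelled iMK. At Slc25a38 and Abcb10 the groups overlapped. The share of all genes with such an order was not counted. At Slc11a2 the fold was 5.88 and 4.42 in ERY and 13.5 and 7.30 in the libraries labelled iMK, and at Ftl1 7.84 and 3.26 against 18.2 and 12.5. At Slc40a1 the widest promoter peak had a fold of 7.96 and 5.83 against 3.33 and 6.70, and the groups overlapped. Over all peaks of a list the median fold was 3.06 and 2.77 against 5.79 and 5.65.

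The H3K27ac of the libraries labelled iMK lay mostly inside that of ERY. Of the bases covered in both libraries labelled iMK, 87.0% were also covered in both ERY libraries over the 10 loci, and 49.5% over all other protein-coding loci. In the other direction 19.1% of bases covered in both ERY libraries were also covered in both labelled iMK, against 32.5% elsewhere. At Tfrc, Steap3, Slc11a2, Abcb10 and Slc40a1 100% of the bases covered in both libraries labelled iMK were also covered in both ERY libraries. Only 3.20 kb were covered in both libraries labelled iMK and in no ERY library, 2.40 kb at Hmox1 and 0.8 kb at Ftl1, while 122 kb were covered in both ERY libraries and neither labelled iMK.

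Within a gene the start sites parted, as the printed sequences show. At Steap3 the starts at 0, 1.62 and 2.28 kb were inside H3K27ac peaks in both ERY libraries and neither labelled iMK, and those at 7.42 and 7.45 kb were inside peaks in all 4. At Slc11a2 the first start lay in no peak of either mark in any library, the start at 0.980 kb lay in H3K27ac peaks in both ERY libraries only, and those at 2.02 and 2.07 kb in all 4. At Fth1 the upstream start had H3K27ac in both ERY libraries only and no H3K4me3, and the start at 2.05 kb was inside peaks of both marks in all 8 libraries. A wide ERY peak that runs over a start site is counted here like a peak centred on it, so these are positions in peaks, not activity of the start.

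Ferroportin showed the same split. The Slc40a1 start at 0.941 kb was inside peaks of both marks in all 8 libraries. The start 0.004 kb from the gene's first, shared by 3 coding transcripts, was inside H3K27ac peaks in both ERY libraries and neither labelled iMK, and inside H3K4me3 peaks in replicate 1 of each cell type. In mouse erythroid precursors an upstream ferroportin start is known to give an mRNA without the iron-responsive element. All transcripts annotated as protein-coding were searched for that hairpin, the loop CAGTGN (the last base not G) on 5 paired bases with a C just before them. The search found it in the Slc40a1 transcript from 0.941 kb and in none of the 3 transcripts from the upstream start. A hairpin with an unpaired base among the 5 was not searched for, so a gene without a match may still hold one. The letters were found in 4 of the 10 genes and in 222 of 21877 protein-coding genes, or 1.01%. The ferritin matches lay in the 5′ UTR at chr19:9982732-9982761 (plus) and chr7:45459778-45459807 (minus), and Tfrc had 4 in its 3′ UTR, the first at chr16:32631219-32631248 and the last at chr16:32631710-32631739. Capitals mark the loop.
Fth1: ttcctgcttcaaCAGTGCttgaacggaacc
Ftl1: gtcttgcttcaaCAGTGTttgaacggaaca
Tfrc, first: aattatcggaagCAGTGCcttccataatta
Tfrc, last: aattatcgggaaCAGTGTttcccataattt
The sequence is in the RNA and carries no mark of its own. It is shown because transcripts from different starts of a gene can differ in holding it: the coding transcripts from both Fth1 starts above held the match, and at Slc40a1 those from the upstream start did not.

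**Figure D5:**
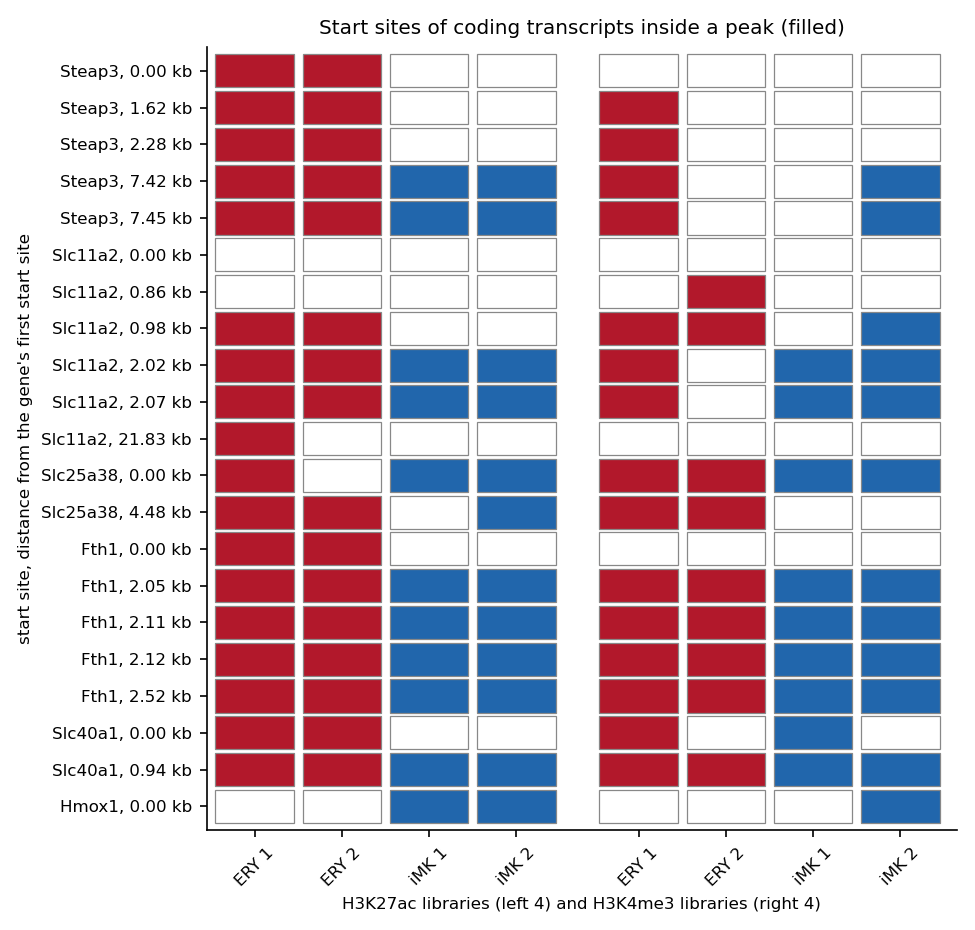
Start sites of coding transcripts at 6 genes whose starts differed (rows, with the distance in kb from the gene's first start) inside a peak (filled) or not (open) in each library (columns, H3K27ac left and H3K4me3 right; red ERY, blue the libraries labelled iMK). Rows filled under H3K27ac in both ERY libraries and neither labelled iMK stand at Steap3 0.00 to 2.28 kb, Slc11a2 0.98 kb, Fth1 0.00 kb and Slc40a1 0.00 kb, and Hmox1 is filled only in blue.

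For H3K4me3 no difference passed the test. Of 13561 genes tested over the locus limma called 0% in either direction, 482 had an unadjusted p under 0.05, and none of these was among the 10. Over promoter peaks limma called 0 of 11770 genes, with 489 at an unadjusted p under 0.05. Differences above 0 were found at 7 of the 10 genes, with a median of 1.71 points, while the median over all genes was -1.66. The groups did not overlap at 2 genes, both higher in ERY, where 2.71% of genes tested had both ERY libraries above both labelled iMK and 20.4% the reverse. These were Slc25a37, with 11.7% and 8.85% in ERY against 1.90% and 6.32%, and Abcb10, with 18.6% and 11.8% against 7.5% and 11.5%. With the libraries quantile normalized the Slc25a37 difference was 10.02 points and passed (adjusted p = 0.0481).

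The H3K4me3 values of the other genes overlapped between the cell types. Tfrc had 11.9% and 5.47% in ERY and 2.28% and 6.38% in the libraries labelled iMK, Slc11a2 had 8.75% and 4.20% against 2.80% and 4.55%, and Steap3 had 4.71% and 0% against 0% and 1.96%. Slc25a38 had 17.6% and 11.1% against 9.38% and 15.2%, and Slc40a1 had 7.80% and 3.64% against 4.16% and 6.24%. The storage genes had their highest value in iMK replicate 2, the longest list. Fth1 had 13.1% and 12.2% against 9.80% and 19.6%, and Ftl1 14.6% and 5.47% against 13.7% and 32.8%. Without that library the difference was 2.86 points at Fth1 and -3.65 at Ftl1. Hmox1 had 6.63% and 0% against 6.63% and 15.5%, mostly a peak at the start site of its neighbour Mcm5. A promoter peak of H3K4me3 was listed in all 4 libraries at 8 genes, against 24.6% of all genes. Steap3 and Hmox1 were among the 23.8% of genes with a mixed pattern. Steap3 lacked one in ERY replicate 2 and replicate 1 labelled iMK, and Hmox1 had one only in replicate 2 labelled iMK.

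Slc25a37 and Abcb10 had wide H3K4me3 peaks in both ERY libraries. The promoter peak of Slc25a37 was 6200 and 5000 bp wide, rank 39 of 8841 and 20 of 6275, against 1200 and 4000 bp in the libraries labelled iMK. That of Abcb10 was 6200 and 4400 bp, rank 39 and 37, against 2400 and 3200 bp. The ratio of ERY to iMK width was 2.15 at Slc25a37, 2.0 at Tfrc, 1.89 at Abcb10, 1.81 at Slc25a38 and 1.76 at Slc11a2. It was 1.1 at Slc40a1, 0.861 at Fth1 and 0.528 at Ftl1, where the median of 5398 genes was 0.8. The H3K4me3 peak at the internal Slc25a38 start ran from 4.23 to 6.83 kb in ERY replicate 1 and from 4.23 to 5.43 kb in replicate 2, with a fold of 6.85 and 10.8. At the first start of the gene the fold was 5.37 and 4.69 in ERY and 3.48 and 3.42 in the libraries labelled iMK. The internal start lay inside H3K27ac peaks in both ERY libraries and in replicate 2 labelled iMK.

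Motif matches were counted in 200-base windows that lay in H3K27ac peaks of both ERY libraries and neither labelled iMK, away from start sites. The motifs were AGATAA, CCACACCC, GCTGAGTCA (bound by NFE2 and by BACH1 with small MAF proteins), and a pair of CTG placed 7 or 8 bases before AGATAA, a spacing bound by TAL1 with GATA1, which also counts as an AGATAA match. Both strands were read. Over the 10 loci 48 of 524 windows held AGATAA, 9.16%, where all 155773 such windows of the genome gave 12.5%. For CCACACCC it was 1.72% against 1.94%, for GCTGAGTCA 0.763% against 0.540%, and for the pair 8 windows, 1.53%, against 0.903%. These shares are descriptions of letters and not of binding.

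Of the 8 windows with the pair 3 lay in the ERY-only distal regions described above, 1 at Steap3 and 2 at Slc11a2, at 33.4 and -8.43 kb. The Steap3 window is shown because it is in the strongest of those regions, 41.2 kb into the gene at chr1:120231401-120231600, and holds 3 AGATAA matches. The remaining 5 lay inside wide ERY promoter peaks, at Steap3, Slc25a37, Slc25a38 and 2 at Abcb10. The 2 at Abcb10 are neighbours, at -6.98 and -7.18 kb of the start (chr8:123990001-123990200 and chr8:123990201-123990400), and are shown as the only adjoining pair. All 3 are printed on the minus strand, that of the genes, from GRCm38.p6. Capitals mark matches, and a pair runs from CTG to AGATAA or, on the other strand, from TTATCT to CAG.
Steap3, 41.2 kb: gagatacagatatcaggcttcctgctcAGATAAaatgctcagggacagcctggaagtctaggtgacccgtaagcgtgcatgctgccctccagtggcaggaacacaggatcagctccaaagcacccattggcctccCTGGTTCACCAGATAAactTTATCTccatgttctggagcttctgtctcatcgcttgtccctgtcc
Abcb10, -6.98 kb: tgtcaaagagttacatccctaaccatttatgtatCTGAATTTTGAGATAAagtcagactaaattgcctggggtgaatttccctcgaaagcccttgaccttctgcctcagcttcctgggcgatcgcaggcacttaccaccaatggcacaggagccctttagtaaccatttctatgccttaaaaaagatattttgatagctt
Abcb10, -7.18 kb: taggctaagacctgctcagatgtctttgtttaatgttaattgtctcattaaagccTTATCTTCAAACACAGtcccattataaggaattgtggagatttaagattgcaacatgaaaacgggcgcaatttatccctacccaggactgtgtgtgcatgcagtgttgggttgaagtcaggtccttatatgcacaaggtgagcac
In the locus of Hmox1, whose known control in mice runs through BACH1, GCTGAGTCA occurred 3 times in the ERY-only windows at -9.72 and -9.52 kb of the start and once in the iMK-only window at -3.92 kb.

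Other genes of iron handling gave a weaker picture as a list. Of 39 listed, 32 had a peak and were tested for H3K27ac locus coverage, 13 were higher in ERY and 1 in iMK, with a median difference of 3.25 points. Over all tested genes 22.0% were called higher in ERY and 17.2% higher in iMK, for this list and the next. The largest in ERY were Snx3, which returns the transferrin receptor to the surface (73.1 points), Glrx5 (66.4) and Isca1 (61.3), which build iron-sulfur clusters, and Abcb6, a porphyrin transporter (53.8). Slc25a28, mitoferrin 2 of non-erythroid cells, was the 1 gene higher in iMK (difference -18.7 points), opposite to its paralog Slc25a37. Of the 9 heme synthesis enzymes 7 were higher in ERY and none in iMK, with a median of 33.7 points, near that of the 10 iron genes. Among these were Alad (55.0 points), Uros (54.4) and Fech (36.3).

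Of 13 genes of heme export, uptake and breakdown 12 were tested, since Hpx had no peak, and 3 were called in each direction, with a median of 1.24 points. These counts lie near the shares of all tested genes, 22.0% called higher in ERY and 17.2% higher in iMK. Higher in ERY were Blvrb, a biliverdin reductase (35.6 points), Bach1, the heme-sensing repressor of Hmox1 (28.6 points), and Abcg2, a heme and drug exporter (15.6 points). Higher in iMK were Hp, the hemoglobin scavenger haptoglobin (-39.5 points), Lrp1, a receptor for heme bound to hemopexin (-11.5 points), and Cd163, the macrophage receptor for hemoglobin (-4.80 points). Hp is also a product of neutrophils and Cd163 stands on the macrophage list. Bach1 had 39.7% and 39.3% in ERY against 10.8% and 11.1%.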

How the data were processed

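Peak lists of 8 ChIP-seq libraries were read as deposited. The authors called peaks in each library separately, and for each peak they deposited a fold (the ratio of ChIP over control), a p-value and a q-value, all q under 0.01. Named in the notes of the submitters, with no role given, are Bowtie 1.0.0, SICER 1.1 and mm10, whereas MACS stands beside Bowtie in the study's general methods. Every peak edge fell on a multiple of 200 bp. Such calling joins neighbouring windows, so the width of a peak also depends on depth and background, which the lists do not hold. Groups came from the submitters' labels, and replicate numbers are only names in order of submission.

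For each gene the percent of the locus covered by peaks was computed (Python 3) and compared with limma 3.58.1 (R 4.3.3) with a trend and no covariates, per mark. Genes with no peak in the 4 libraries were left out, p was adjusted by Benjamini-Hochberg, and calls were made under 0.05. Each difference is that of the means, ERY less iMK, with limma's standard error (SE). The fit was tested on simulated data. No test was made of H3K4me3 distal peaks. Alternatives were other flanks (5 and 25 kb), a promoter window of 2.5 kb, q at most 1e-05, equal peak numbers, a log2 scale, quantile normalization, no filter, and each library left out. The members and gene lists were chosen with earlier results of these data known. All 10 genes were named. Of each other list the text names up to 4 genes per direction with the largest called difference, except 1 gene that is not reported here.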

Additional observations from a re-analysis of the deposited data

How the results depend on the processing

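No paired analysis was possible because the labels number no replicates. Of the values of single genes 276 kept direction and side of the threshold under settings that keep all libraries, 19 lost their call, 9 gained one and 6 reversed. Reversals were the Ftl1 H3K27ac locus and promoter differences (-14.0 and -18.8 points), the Slc25a38 promoter difference (-1.68) and the Fth1 H3K4me3 locus difference (2.83), all under quantile normalization, and with a flank of 25 kb the Hmox1 H3K27ac locus (2.11) and distal (4.04) differences. Of the counts of genes called, those higher in iMK over the H3K27ac locus rose from 0 to 1 under quantile normalization and with a flank of 5 kb, that over distal peaks from 0 to 1 with a flank of 5 kb, and the H3K4me3 locus count in ERY from 0 to 1 under quantile normalization. The promoter count in ERY fell from 7 to 4 with no filter.

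With 1 library left out the lone library is assumed to vary like the others. The H3K27ac counts in ERY then ranged from 2 to 6 (locus), 1 to 5 (promoter) and 1 to 6 (distal), that of promoters in iMK from 0 to 1, and the H3K4me3 promoter count in iMK from 0 to 1. The H3K4me3 locus difference changed sign at Steap3 (-0.981 to 3.73), Slc25a38 (-1.17 to 5.27), Fth1 (-6.94 to 2.86) and Slc40a1 (-1.56 to 2.60). Start sites of protein-coding transcripts only, a choice made after seeing the data, changed no count by more than 1.5 times. The causes were not tested. Depth is unknown, so a missing peak may be a limit of depth.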
